A study of Mus musculus with 2 samples.

Results

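Calcium-binding proteins, calcium pumps and 2 genes of calcium store release were compared between ribosome-bound RNA of Purkinje cells and the RNA left behind, in mouse cerebellum at postnatal day 7. The set holds 10 genes of the 19503 with a value: the buffers Calb1, Calb2 and Pvalb, the store release genes Car8 and Ryr1, the endoplasmic reticulum pumps Atp2a2 and Atp2a3, and the plasma membrane pumps Atp2b1, Atp2b2 and Atp2b3. They were taken by their symbol in the platform annotation, and each is measured by 1 probe set. Both RNA samples came from Tg(Pcp2-L10a-Egfp) mice, whose transgene puts a ribosomal protein fused to green fluorescent protein under the Pcp2 promoter, active in Purkinje cells. Antibody-coated beads captured the tagged ribosomes from an extract of pooled cerebella. RNA eluted from the beads is the TRAP sample (translating ribosome affinity purification), and RNA that the beads did not retain is the unbound sample. Whether both came from the same extract is not stated. Each was hybridised to 1 Affymetrix array, and the number of animals pooled is not given in the sources used here.

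Calcium enters the Purkinje cell through voltage-gated channels and leaves the endoplasmic reticulum through receptors for inositol trisphosphate and through ryanodine receptors. Soluble proteins with EF-hand calcium-binding loops, such as calbindin, calretinin and parvalbumin, take up the ions. SERCA pumps return them to the endoplasmic reticulum, and plasma membrane calcium pumps (PMCA) expel them from the cell. Purkinje cells are known for a high calcium buffering capacity, and calbindin is a standard marker of them.

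Of the 10 genes, 7 had the higher value in TRAP and 3 in the unbound sample. Calb1, Pvalb and Atp2a3, 3 of the 10 genes, had a TRAP value 2-fold or more above the unbound one. For Calb2, Atp2b1 and Atp2b3, another 3 of the 10, the unbound value was 2-fold or more above that of TRAP. The other 4 genes, Car8, Ryr1, Atp2a2 and Atp2b2, differed by less than 2-fold, all with the higher value in TRAP. Among all 10524 genes above a low-value floor, 8.11% passed 2-fold on the TRAP side and 18.6% on the unbound side. The floor is a log2 value of 7.08, the median over both arrays pooled, which a gene had to exceed on at least 1 of them. The median difference of the 10 genes was 0.56 on the log2 scale, TRAP minus unbound, beside a median of -0.13 over all genes above the floor. Each fraction was hybridised once, so the data hold no replicate and allow no test. No gene has an error, and each difference compares 2 arrays.

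Several properties of these arrays bear on every value. The median over all probe sets was 6.92 in TRAP and 7.25 in unbound, and subtracting the array medians adds 0.33 to every difference. The lower quartiles were 5.4 in TRAP and 5.29 in unbound, so the offset was not the same at every level. The files hold no detection calls. Of the 10 genes, 7 exceeded the floor on both arrays, Calb2 and Atp2a3 on 1 array only, and Ryr1 on neither, so the fold of Calb2 and of Atp2a3 is uncertain. Values of different genes come from different probes and are not set against each other; only the difference between the fractions is. Both samples are RNA of cerebellar extract rather than sets of cells, and the unbound one can also hold Purkinje cell RNA (Pcp2 had 11.65 there). The number of cells of a type and the RNA per cell cannot be told apart in such values. How complete the capture was, and what else the beads held, was not tested.

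**Figure D1:**
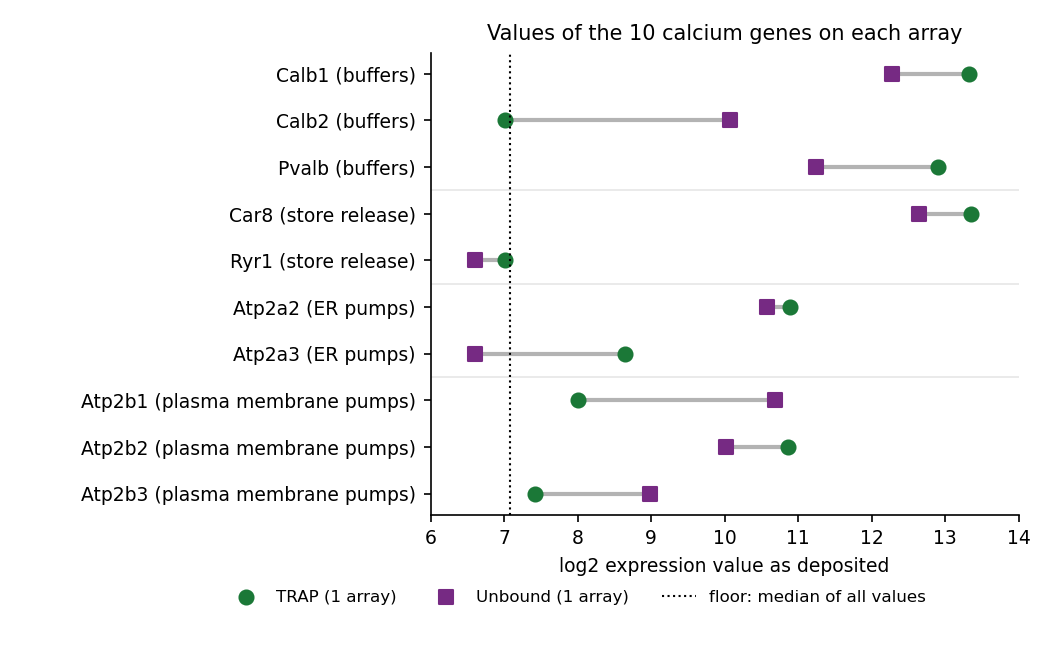
Log2 expression values as deposited (horizontal axis) of the 10 genes on the TRAP array (green circles) and the unbound array (purple squares), 1 array each, grouped by role; the dotted line is the floor at 7.08. The 3 genes with the purple square on the right are Calb2, Atp2b1 and Atp2b3, and both Ryr1 points lie left of the floor.

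Promoter sequences are shown for the genes that passed 2-fold and have an entry in the RefSeq promoter table (GRCm38.p6): Pvalb and Atp2a3, higher in TRAP, and Atp2b1, higher in unbound. They let a reader see the core promoters of genes on opposite sides of the comparison. Of the 10 genes, 5 had entries, with 9 start sites in all. Printed are the 250 bases before the first listed start site, 5′ to 3′ on the gene's strand. Capitals mark matches, on either strand, to TATAAA (the TATA box), TATTTAA (a variant chosen after the sequences had been seen), GGGCGG (the GC box), CCAAT (bound by the factor NF-Y), AGGTCA (a site of ROR nuclear receptors) or TGACGTCA (the cyclic AMP response element); neighbouring matches may overlap.
Pvalb, chr15:78206401-78206650, minus strand: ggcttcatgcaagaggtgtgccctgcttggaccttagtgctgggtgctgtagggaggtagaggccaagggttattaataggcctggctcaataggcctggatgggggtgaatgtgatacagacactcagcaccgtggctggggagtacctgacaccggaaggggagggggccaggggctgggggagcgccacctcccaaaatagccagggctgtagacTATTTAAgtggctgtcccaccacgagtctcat
Atp2a3, chr11:72960919-72961168, plus strand: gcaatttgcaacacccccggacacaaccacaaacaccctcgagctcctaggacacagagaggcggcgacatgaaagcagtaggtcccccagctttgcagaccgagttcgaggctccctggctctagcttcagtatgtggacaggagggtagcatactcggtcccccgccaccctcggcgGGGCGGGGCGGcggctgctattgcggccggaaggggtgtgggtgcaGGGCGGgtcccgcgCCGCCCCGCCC
Atp2b1, chr10:98914392-98914641, plus strand: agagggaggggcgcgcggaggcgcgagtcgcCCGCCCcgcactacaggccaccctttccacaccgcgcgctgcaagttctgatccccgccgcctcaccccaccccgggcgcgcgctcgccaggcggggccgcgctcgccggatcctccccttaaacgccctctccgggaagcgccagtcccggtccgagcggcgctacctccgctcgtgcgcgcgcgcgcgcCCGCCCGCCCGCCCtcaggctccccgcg

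The Pvalb window holds 1 match, TATTTAA from position -32 to -26 relative to the start, and 58.4% of its bases are G or C. The Atp2a3 window holds 5 GC boxes and is 66.8% G or C, and that of Atp2b1 holds 4 and is 78.4% G or C, beside a median of 52.4% over all 32851 windows of this length. The GC box occurs in 32.7% of those windows, TATTTAA in 4.18%, TATAAA in 12.4%, CCAAT in 33.8%, AGGTCA in 14% and TGACGTCA in 1.55%. Of the 9 windows of the 10 genes, none contains the TATA box, the ROR site or the cyclic AMP response element. GC boxes stand before a gene higher in TRAP and before a gene higher in unbound. A match is a description of the letters.

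Among the buffers, both proteins known from Purkinje cells had the higher value in TRAP, and calretinin the lower. Calb1, encoding calbindin-D28k, a high-affinity fast buffer, had a log2 value of 13.32 in TRAP and 12.28 in unbound. The difference of 1.05 is 2.06-fold and ranked 774 from the highest of the 10524 genes. Pvalb, encoding parvalbumin, a slower buffer found in Purkinje cells and in molecular layer interneurons, had 12.91 and 11.24. Its difference of 1.68, a 3.20-fold higher value in TRAP, ranked 178 from the highest.

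Calb2, encoding calretinin, a relative of calbindin known in the cerebellum from granule cells and unipolar brush cells, had 7.02 in TRAP and 10.08 in unbound. The difference of -3.06, or 8.33-fold, ranked 27 from the lowest of the 10524 genes. The TRAP value lies just under the floor of 7.08. Calb1 and Calb2 thus lay on opposite sides, with a gap of 4.10 between their log2 differences.

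Marker genes give the setting for these values. Counts of markers past 2-fold, here and below, are to be read against the shares of all genes above the floor. As deposited these were 8.11% on the TRAP side and 18.6% on the unbound side. Each of 11 Purkinje cell markers with a value was higher in TRAP, and 6 passed 2-fold. With the array medians subtracted 10 passed. The number was 7 after quantile normalization, and 7 with the trend of the difference with the mean level removed. As deposited, the 11 had values of 9.47 to 13.46 in TRAP and 7.11 to 12.96 in unbound, and differences from 0.49 to 3.17. Pcp2, whose promoter drives the tag, differed by 1.34. The differences of Calb1, Pvalb, Car8, Atp2a3 and Atp2b2 fall inside that range, and those of Ryr1 and Atp2a2 below it. All 12 granule neuron and progenitor markers were higher in unbound, with differences from -3.05 to -0.91 and values of 7.11 to 11.84 in TRAP and 8.72 to 12.91 in unbound. Their lowest belonged to Cbln3 and Gabra6, at -3.05 and -2.78. For unipolar brush and nuclear neurons, 3 of 5 measured markers exceeded the floor and passed 2-fold on the unbound side, at -2.83 to -2.14. Of these 3, 1 exceeded the floor on the unbound array only. Over all 5 the values ran from 5.41 to 7.55 in TRAP and from 5.24 to 9.96 in unbound. The part of these cells in the Calb2 value was not tested.

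Inhibitory interneurons, of which those of the molecular layer also carry parvalbumin, had 7 of 8 measured markers above the floor. All 7 were higher in unbound and 4 passed 2-fold, led by Tfap2b and Kit at -3.22 and -2.68. Of the 7, 3 exceeded the floor on the unbound array only, so the floor itself favours negative differences among those 3. Kit is 1 of them, with a TRAP value of 6.6. The 8 markers had values of 5.53 to 8.84 in TRAP and 5.90 to 10.65 in unbound. The Pvalb difference was 1.68. The part of interneurons in the Pvalb value was not tested.

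**Figure D2:**
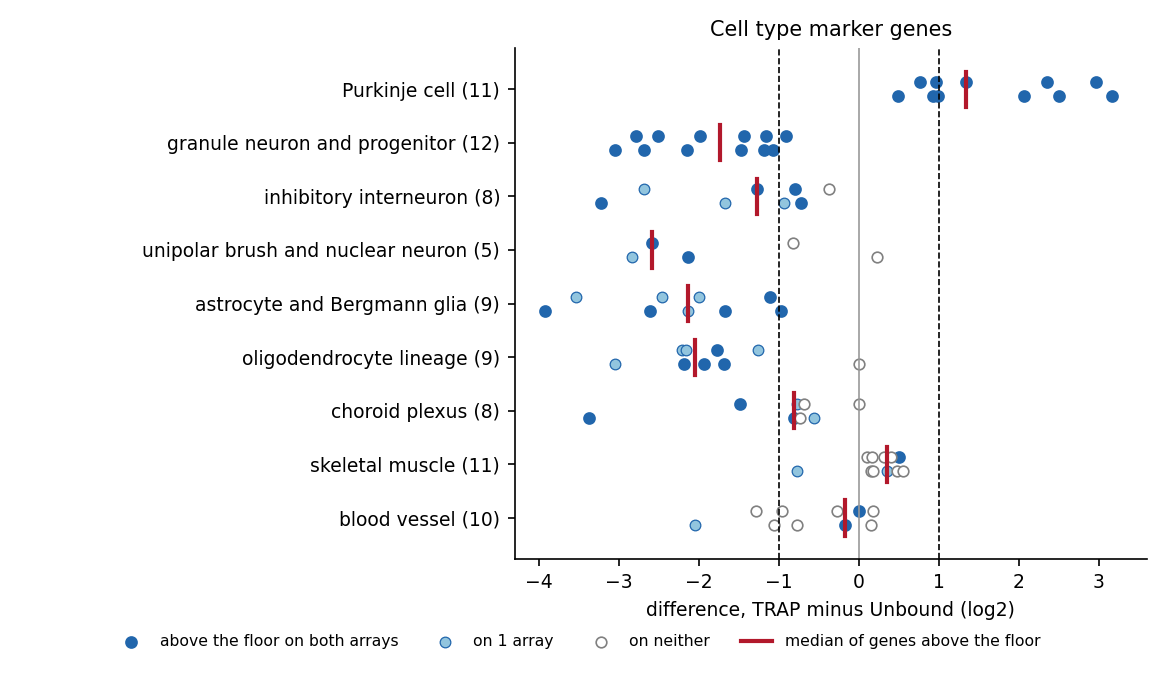
Difference, TRAP minus unbound on the log2 scale (horizontal axis), of each marker gene with a value (1 point per gene, number per list in brackets), shaded by whether it exceeded the floor on both arrays, on 1 or on neither; red bars are medians of the genes above the floor and dashed lines mark 2-fold. The 11 Purkinje cell markers lie to the right of 0, and the granule, interneuron and glial markers above the floor to the left.

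Of the store release genes, Car8 had the higher value in TRAP and Ryr1 was below the floor on both arrays. Car8, encoding a carbonic anhydrase-related protein without enzyme activity that binds the inositol trisphosphate receptor and lowers its affinity for the ligand, had 13.35 in TRAP and 12.64 in unbound. Its difference of 0.71 is 1.63-fold, short of 2-fold, and ranked 1562 from the highest. With the array medians subtracted the Car8 difference was 1.04. It was 0.64 after quantile normalization, and 0.49 with the trend of the difference with the mean level removed. The highest value of any probe set on either array was 13.65, so that Car8 and Calb1 were read near the upper end of the scale, and whether differences are compressed there was not tested. Ryr1, encoding the ryanodine receptor of skeletal muscle, which Purkinje cells also use, had 7.02 and 6.61, a difference of 0.41. Both Ryr1 values lie below the floor, so neither a level nor a fold can be read from them with confidence. Skeletal muscle genes were checked beside it: of 11 with a value, 3 exceeded the floor on at least 1 array, and none of those differed by 2-fold. Over the 11 genes values ran from 4.97 to 8.18 in TRAP and 4.80 to 7.71 in unbound, with differences from -0.77 to 0.55. The part of muscle RNA in the Ryr1 value was not tested.

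Both SERCA genes of the set were higher in TRAP, by unequal amounts. Atp2a1, a further SERCA gene outside the set, had 6.12 in TRAP and 5.73 in unbound, both below the floor. Atp2a2, encoding SERCA2, the widely expressed pump of the endoplasmic reticulum, had 10.89 in TRAP and 10.58 in unbound. Its difference of 0.31, or 1.24-fold, was the smallest of the 10 genes. Atp2a3, encoding SERCA3, a pump of lower calcium affinity with a narrower distribution, had 8.64 in TRAP and 6.60 in unbound. The difference of 2.04, or 4.11-fold, was the highest of the 10 and ranked 72 from the top of the 10524 genes. The unbound value lies below the floor, which leaves that fold uncertain. The gap between the log2 differences of Atp2a3 and Atp2a2 was 1.73.

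The 3 PMCA genes of the set, which does not hold the whole family, split. Atp2b2, encoding PMCA2, the fast isoform abundant in Purkinje cells whose loss gives ataxia and deafness in mice, had 10.86 in TRAP and 10.02 in unbound. Its difference was 0.84, or 1.78-fold, at rank 1214 from the highest. Atp2b1, encoding PMCA1, the isoform made in most cells, had 8.0 and 10.69. At -2.69, or 6.46-fold, it ranked 87 from the lowest, and both values exceed the floor.

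Atp2b3, encoding the neuronal isoform PMCA3, had 7.42 in TRAP and 8.98 in unbound. This is a difference of -1.56, or 2.96-fold, at rank 926 from the lowest. Atp2b2 stood 3.53 above Atp2b1 and 2.40 above Atp2b3 in log2 difference, and Atp2b3 stood 1.13 above Atp2b1. Atp2b2 was thus the only PMCA gene of the 3 with a higher value in TRAP.

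Markers of glia and choroid plexus lay on the same side as Atp2b1 and Atp2b3. All 9 astrocyte and Bergmann glia markers were higher in unbound, with differences from -3.92 to -0.97 and values of 6.13 to 12.27 in TRAP and 8.27 to 13.25 in unbound. Of 9 oligodendrocyte lineage markers, 8 exceeded the floor, each past 2-fold on the unbound side. With the array medians subtracted 7 of them passed, and all 8 after quantile normalization or with the trend with the mean level removed. Values over the 9 ran from 5.08 to 8.27 in TRAP and from 6.36 to 10.46 in unbound. Of 8 choroid plexus markers, 5 exceeded the floor and were higher in unbound and 2 passed 2-fold, with values over the 8 of 5.07 to 9.46 and 5.81 to 12.83. The floor was exceeded on the unbound array only by 4 of the 9 astrocyte and Bergmann glia markers. The same held for 4 of the 8 oligodendrocyte and 2 of the 5 choroid plexus markers. Their folds are uncertain, and the floor itself favours negative differences among genes kept in that way. The part of glia and choroid plexus in the Atp2b1 and Atp2b3 values was not tested.

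**Figure D3:**
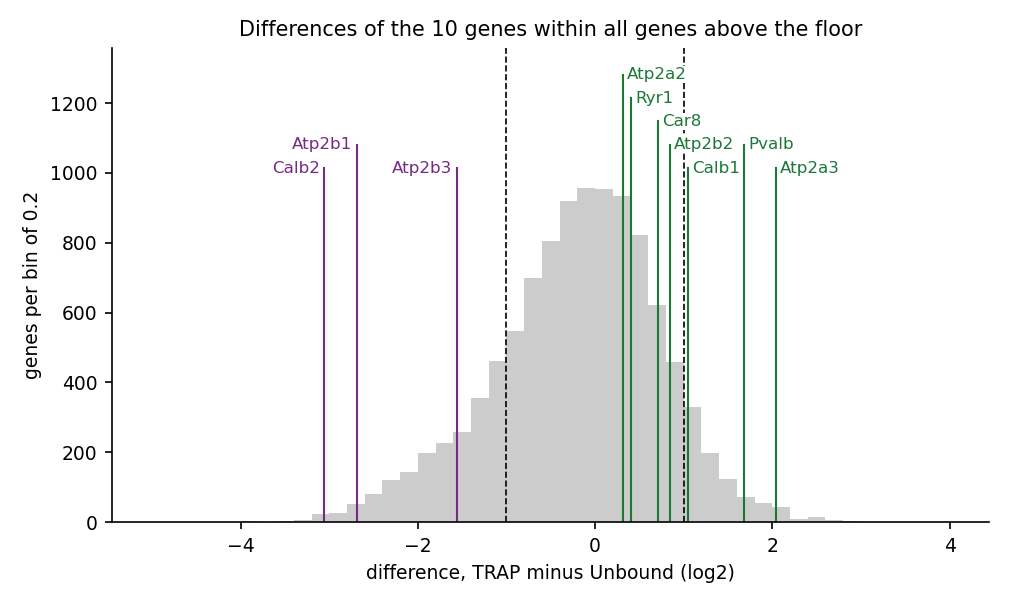
Histogram (grey, genes per bin of 0.2) of the difference, TRAP minus unbound on the log2 scale, over the 10524 genes above the floor, with the 10 genes as vertical lines (green higher in TRAP, purple higher in unbound; line height only separates the names) and dashed lines at 2-fold. Calb2 at -3.06 and Atp2b1 at -2.69 lie in the left tail, Atp2a3 at 2.04 in the right tail; Calb1 at 1.05 lies just past 2-fold and Atp2b2 at 0.84 just short of it; Ryr1 is drawn although it is below the floor.

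The direction of each of the 10 genes was the same under every scaling tried, but the 2-fold count was not. Subtracting the array medians adds 0.33 to each difference, too little to turn any of the 10 genes. With the array medians subtracted, 5 genes passed 2-fold on the TRAP side, Car8 at 1.04 and Atp2b2 at 1.17 having joined, and 3 on the unbound side. The shares of all genes were then 16.1% and 11.8%, and their median 0.20. After quantile normalization 2 genes passed on the TRAP side and 3 on the unbound side, beside 11.8% and 14.1% of all genes. When the trend of the difference with the mean level, fitted by loess, was removed, the counts were also 2 and 3, beside 9.35% and 16.5%. Calb1 fell short of 2-fold in the last 2 settings, at 0.95 and 0.84. Pvalb and Atp2a3 on one side and Calb2, Atp2b1 and Atp2b3 on the other stayed past 2-fold under all 4 scalings.

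**Figure D4:**
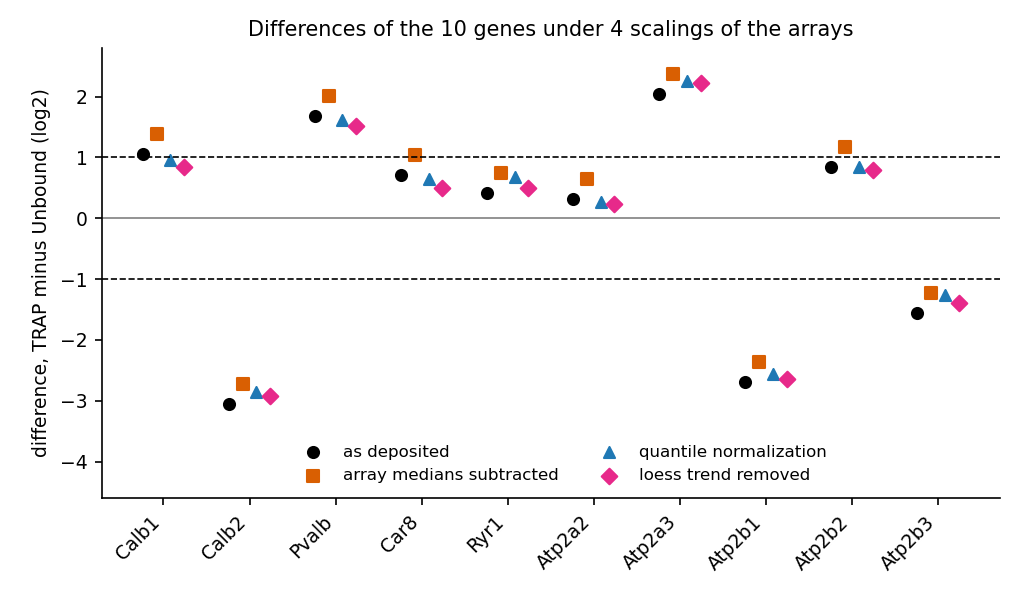
Difference, TRAP minus unbound on the log2 scale (vertical axis), of each of the 10 genes with the arrays as deposited (black circles), with array medians subtracted (orange squares), after quantile normalization (blue triangles) and after removal of a loess trend (pink diamonds); dashed lines mark 2-fold. No gene crosses 0, and Calb1, Car8 and Atp2b2 cross the upper dashed line between settings.

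Other genes of calcium handling, together with the carbonic anhydrase family, were read from 8 lists. Of their 94 genes, 90 had a value and 61 exceeded the floor. Of these 61, 9 passed 2-fold on the TRAP side (14.8%) and 19 on the unbound side (31.1%), beside 8.11% and 18.6% of all genes above the floor, and their median difference was -0.57. With the array medians subtracted the counts were 16 and 13, beside shares of 16.1% and 11.8% over all genes. After quantile normalization they were 11 and 16, beside 11.8% and 14.1%, and with the loess trend removed 10 and 18, beside 9.35% and 16.5%. The counts per list below are on values as deposited unless a scaling is named, and are to be read against the same shares. Itpr1, the main inositol trisphosphate receptor of Purkinje cells, was not analysed here.

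Release channels and their partners lay mostly on the unbound side. Of 9 genes above the floor, 4 passed 2-fold on the unbound side and none on the other, and the median was -0.97, or -0.43 over all 13 with a value. With the array medians subtracted the counts were 2 and 1 and the median -0.63. The counts were 2 and 0 after quantile normalization, and 3 and 0 with the loess trend removed. Ryr2, the cardiac ryanodine receptor that is also found in brain, had 7.01 in TRAP and 8.80 in unbound, a difference of -1.80. Its TRAP value lies just under the floor, which leaves that fold uncertain. Ryr3, a further ryanodine receptor gene named for completeness after its values were seen, had 5.73 and 6.13, both below the floor like those of Ryr1. Sri, encoding sorcin, a regulator of ryanodine receptors, had 8.85 and 10.19.

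Proteins that hold calcium inside the endoplasmic reticulum leaned the same way. Of 9 genes above the floor, 4 passed 2-fold on the unbound side and 1 on the TRAP side, and the median was -0.87, or -0.53 over all 13. Subtracting the array medians left 2 on the unbound side and 1 on the TRAP side. After quantile normalization the counts were 3 and 1, and with the loess trend removed 4 and 1. Calu, encoding calumenin, and Rcn1, encoding reticulocalbin, were 5.25-fold and 2.96-fold higher in unbound. Casq2, encoding calsequestrin, the store buffer known from heart muscle, was 2.34-fold higher in TRAP (7.44 against 6.22). Calu, Rcn1 and Casq2 each exceeded the floor on 1 array only.

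Exchangers and the remaining pumps gave no gene past 2-fold on the TRAP side. Of 5 exchanger genes above the floor, 2 passed 2-fold on the unbound side, and the median was -0.97, or -0.20 over all 9. Of the 5, 4 exceeded the floor on the unbound array only, so the floor itself favours negative differences among them. Slc8a1, a sodium-calcium exchanger, had 5.54 in TRAP and 7.94 in unbound, and its 2 probe sets differed by -2.74 and -2.05. Slc24a3, an exchanger that also carries potassium, had 7.04 and 8.91; the TRAP value of both genes lies below the floor. Of the other pumps and their regulators, 3 of 7 exceeded the floor and none differed by 2-fold. Tmco1, a calcium channel of the endoplasmic reticulum, had a difference of -0.78, and Atp2c1, the Golgi calcium pump, of -0.43.

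Genes of calcium entry after store depletion and of mitochondrial uptake held members on both sides. Of 5 store-operated entry genes above the floor, 1 passed 2-fold on the TRAP side and none on the other, and the median was 0.75, or 0.31 over all 6. With the array medians subtracted, and also after quantile normalization, 3 passed on the TRAP side, and with the loess trend removed 2. The gene past 2-fold as deposited was Orai2, a plasma membrane channel subunit, at 9.69 against 8.68, and both of its probe sets differed by 1.01. Of 6 mitochondrial uptake genes, all above the floor, 1 passed 2-fold on the TRAP side and none on the other, and the median was 0.06. With the array medians subtracted 3 passed on the TRAP side and the median was 0.39. After quantile normalization, and also with the loess trend removed, 1 passed. The gene past 2-fold as deposited was Micu3, a neuronal regulator of the mitochondrial uniporter, at 10.92 against 9.86.

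The remaining EF-hand proteins spread as widely as the buffers. Of 17 above the floor, 4 passed 2-fold on the TRAP side and 7 on the unbound side, and the median was -0.57, or -0.34 over all 21. Necab2, a neuronal calcium-binding protein, had 11.61 in TRAP and 9.13 in unbound, and Cabp7, a calmodulin-like protein, 10.06 and 8.02. Necab3 had 6.96 and 10.11, and Efhd1, a mitochondrial EF-hand protein, 6.60 and 9.66, with both TRAP values below the floor. Necab2 and Necab3, like Calb1 and Calb2, are relatives with differences of opposite sign, 2.48 and -3.14.

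The carbonic anhydrase family, to which Car8 belongs by sequence, was measured in 15 other genes, 7 of them above the floor. Of these 7, 2 passed 2-fold on the TRAP side and 2 on the unbound side, and the median was 0.70, or -0.20 over all 15. The counts were 4 and 1 once the array medians were subtracted. After quantile normalization, and also with the loess trend removed, they were 2 and 2. Car7, a cytosolic enzyme of neurons, had 11.95 in TRAP and 9.95 in unbound, and Car2, another cytosolic enzyme, 10.91 and 9.59. Car10 had 10.42 and 11.62, a difference of -1.20 that was short of 2-fold, at -0.87, with the array medians subtracted. Car3, an enzyme known from muscle, had 6.44 and 8.19, its TRAP value below the floor.

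**Figure D5:**
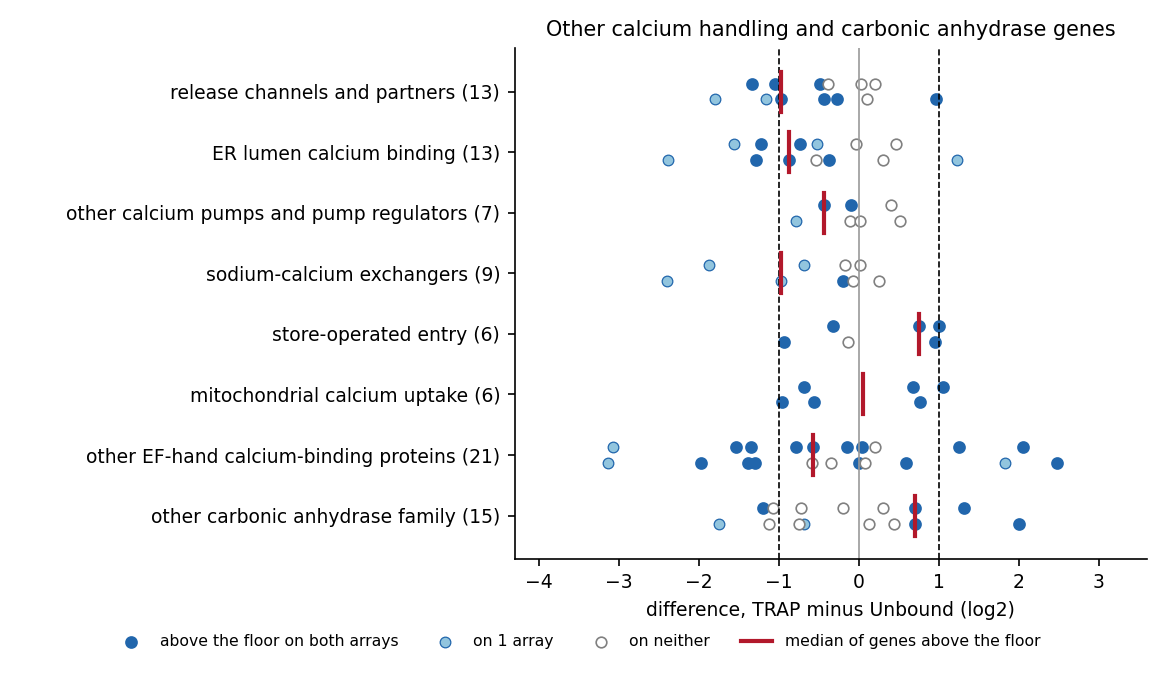
Difference, TRAP minus unbound on the log2 scale (horizontal axis), of each listed gene with a value (1 point per gene, number per list in brackets), shaded by whether it exceeded the floor on both arrays, on 1 or on neither; red bars are medians of the genes above the floor and dashed lines mark 2-fold. The EF-hand list runs from -3.14 to 2.48, while no exchanger above the floor lies to the right of 0 as deposited. Of these 5 exchangers, 4 exceeded the floor on the unbound array only. Slc24a2, at -0.20, moves to 0.13 with the array medians subtracted and to 0.06 after quantile normalization.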

How the data were processed

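Affymetrix Power Tools, named in the submitters' processing notes, produced the deposited table, which holds 1 expression value for each probe set on either array; its version and its background and normalization steps are not given in the sources used. The deposited values were taken as log2. Their base is not stated and was inferred, since natural logs would put the highest value at a signal of 847885, above the 65535 of a 16-bit scanner. Of 22097 probe sets, 20999 name 1 gene in the platform annotation, and 20959 of these matched RefSeq (GRCm38.p6) by Entrez identifier; probe sets were averaged per gene. Differences are TRAP minus unbound, without further scaling. Medians and counts were computed in Python 3.11.15 with pandas 2.3.3, and the loess trend (span 0.3) with statsmodels 0.14.6. Scripts were tested on simulated data. The genes and lists were chosen with earlier results of these data known. Of each of the 8 lists of other genes, up to 2 genes from each end that passed 2-fold are named, or else the 2 with the largest difference. Of each marker list up to 2 are named, with Pcp2. Arrays have no read depth, and their number limits the precision.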

Additional observations from a re-analysis of the deposited data

How the results depend on the processing

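No paired analysis was possible because each fraction has 1 array. Each of the 10 genes kept its direction under every scaling, Ryr1 with both values below the floor. Subtracting the array medians adds 0.33 to each difference, too little to turn any of the 10 genes. The floor and probe set rules could not change a direction, because each gene has 1 probe set and a floor only drops genes. The count past 2-fold on the TRAP side was 5 with the array medians subtracted and 5 at a threshold of 1.5-fold, and 2 or 3 otherwise. The count on the unbound side was 3, or 2 with the floor at the 75th percentile or a threshold of 3-fold. The median of the 10 genes was 0.89 with the array medians subtracted, 0.66 after quantile normalization and 0.49 without the loess trend. It was 0.71 over the genes that passed a floor at the 75th percentile, one applied to the mean level, or the usual floor. The last setting was added after the data had been seen. Each drops Ryr1, and the floor at the 75th percentile, a log2 value of 9.01, also drops Atp2a3 and Atp2b3. The gaps between relatives, also added then, were for Calb1 over Calb2 3.81 by quantiles and 3.77 without the trend, for Atp2a3 over Atp2a2 1.99 in both, for Atp2b2 over Atp2b1 3.41 and 3.43, for Atp2b2 over Atp2b3 2.12 and 2.17, and for Atp2b3 over Atp2b1 1.29 and 1.26. Of the genes in the 8 lists, 16 passed on the TRAP side with the array medians subtracted, 17 at 1.5-fold and 4 at 3-fold. On the unbound side 30 passed at 1.5-fold, 8 at 3-fold and 10 with the floor at the 75th percentile. Signs of list medians turned in 5 cases: blood vessel markers gave 0.17, 0.21 and 0.02 under median subtraction, quantiles and loess, against -0.17 as deposited, the carbonic anhydrase family gave -0.20 with no floor, and skeletal muscle markers gave -0.13 with the floor on the mean level. Thresholds and fewer genes set the counts by construction; the cause of the other shifts was not tested.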
